A study of Mus musculus with 6 samples.

Results

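Transcripts of 10 heavy chain genes of MHC class I, 2 classical and 8 nonclassical, were selected by symbol out of the 41388 genes of the expression table, and compared between Th9 cells with and without IRF1. Classical MHC class I molecules consist of a polymorphic heavy chain, the invariant light chain β2-microglobulin and a peptide. The classical heavy chains H2-K1 and H2-D1 are displayed on nearly all nucleated cells and show peptides from inside the cell to CD8+ T cells, whereas the nonclassical heavy chains of the Q, T and M regions of the mouse H2 complex have more restricted partners. In many cell types IFN-γ raises class I transcription through the interferon regulatory factor IRF1, among other factors. IRF1 binds an element in class I promoters, and the co-activator NLRC5 acts on the same promoters.

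The comparison covered 3 WT and 3 Irf1-/- samples of naive CD4+ T cells. The cells came from spleen and lymph nodes of mice aged 8 to 12 weeks and were stimulated for 2 days through CD3 and CD28 in Th9 medium with IL-2, IL-4 and TGF-β, which directs them to make IL-9. IFN-γ was present at 5 ng per ml in all 6 samples, so that a culture without IFN-γ was not part of the comparison and the values do not measure the response to the cytokine. The general culture protocol names recombinant rat IFN-γ as the supplement at this dose, beside an antibody to mouse IFN-γ. IRF1 was missing in the whole animal and not only in T cells, and the methods describe C57BL/6 mice as purchased and Irf1-/- mice as bred in house, on a shared C57BL/6 background and matched for sex and age.

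Reads on genes ranged from 5639788 to 13348230 per library and were largest in replicate 3 of both genotypes. Each of the 10 genes held at least 62 reads in every library, from 7959 to 20330 for H2-K1 down to 62 to 314 for H2-T24 and 82 to 233 for H2-T10. Transcript of the targeted gene, Irf1, remained in the Irf1-/- libraries, with normalized counts of 1476 to 1780 against 2660 to 2968 in WT. A gene-level count does not separate a deleted exon from the rest of the transcript, so it is a limited check of the labels. Summed Y-linked transcripts stood at 2301 and 2306 in WT replicates 1 and 2 and at 0 to 11.1 in the other 4 libraries, which held Xist at 16973 to 19403. These values go against sex matching in WT replicates 1 and 2, and sex and genotype cannot be fully told apart. Of 8 CD4 T cell markers, Cd3e was called lower and Thy1 higher in Irf1-/- cells, and the summed level of the list was 16743 to 17231 in WT and 17296 to 18421 in Irf1-/- libraries. For 8 myeloid markers the summed level was 111 to 260 in WT libraries and 35.8 to 1050 in Irf1-/- libraries, with Lyz2 (559) and Cd14 (334) highest in Irf1-/- replicate 2. Mpeg1 was the 1 myeloid marker called, and it was lower in Irf1-/- cells (93.7 in WT and 45.9, log2 fold change -1.16, adjusted p = 0.0367) and not called without WT replicate 1 or 2. The lists of 7 B cell markers (612 to 827 against 450 to 536, with Pax5 at 0), 2 CD8 T cell markers (32.4 to 41.2 against 20.3 to 30.7), 6 dendritic cell markers (22.1 to 47.4 against 30.7 to 34.6) and 5 NK cell markers (0 to 2.46 against 1.39 to 6.39, Ncr1 and Klrb1c at 0) were lower in sum than the CD4 list. Ighm, which made up most of the B cell sum, was called lower in Irf1-/- cells (log2 fold change -0.54, adjusted p = 0.0087). The part of these markers in the class I values was not tested, and in bulk RNA a smaller number of cells of a type and less RNA per cell cannot be told apart.

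All 10 genes lie on chromosome 17 of GRCm38. H2-K1 (ENSMUSG00000061232, 33996017 to 34000347, - strand) opens the region. H2-D1 (ENSMUSG00000073411, 35262730 to 35267499, + strand) is followed on the same strand by the Q genes H2-Q4 (ENSMUSG00000035929, 35379617 to 35385290), H2-Q6 (ENSMUSG00000073409, 35424850 to 35430055) and H2-Q7 (ENSMUSG00000060550, 35439155 to 35443773). The T genes are on the - strand, in the order H2-T24 (ENSMUSG00000053835, 36005695 to 36020560), H2-T23 (ENSMUSG00000067212, 36029773 to 36032855), H2-T22 (ENSMUSG00000056116, 36037128 to 36042747) and H2-T10 (ENSMUSG00000079491, 36115876 to 36121465). H2-M3 (ENSMUSG00000016206, 37270220 to 37274484, + strand) lies farthest out. The annotation lists H2-T10 as a polymorphic pseudogene and the other 9 as protein coding.

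Promoter sequence bears on the comparison because IRF1 binds DNA, and 8 of the 10 genes had a promoter in the RefSeq table (GRCm38.p6), all but H2-T24 and H2-T10. The following windows of 128 bases surround the interferon regulatory core, read in the direction of the gene. They lie at chr17:34000334-34000461 (- strand) for H2-K1, chr17:35262920-35263047 (+ strand) for H2-D1, chr17:35379440-35379567 (+ strand) for H2-Q4, chr17:35424674-35424801 (+ strand) for H2-Q6, chr17:35439018-35439145 (+ strand) for H2-Q7, chr17:36032721-36032848 (- strand) for H2-T23, chr17:36042829-36042956 (- strand) for H2-T22, and chr17:37270109-37270236 (+ strand) for H2-M3. Capitals mark the interferon regulatory core and the letters CCAAT or their reverse complement ATTGG, the core of the Y box.
H2-K1: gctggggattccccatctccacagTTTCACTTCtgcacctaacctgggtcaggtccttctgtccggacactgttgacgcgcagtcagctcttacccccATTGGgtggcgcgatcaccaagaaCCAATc
H2-D1: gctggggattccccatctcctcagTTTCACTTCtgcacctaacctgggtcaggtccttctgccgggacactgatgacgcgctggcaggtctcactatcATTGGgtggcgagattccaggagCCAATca
H2-Q4: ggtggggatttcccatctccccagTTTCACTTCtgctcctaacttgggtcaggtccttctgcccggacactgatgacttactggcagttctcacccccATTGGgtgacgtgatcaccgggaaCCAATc
H2-Q6: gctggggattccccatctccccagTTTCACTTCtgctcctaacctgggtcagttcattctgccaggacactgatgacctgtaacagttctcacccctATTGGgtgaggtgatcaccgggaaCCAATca
H2-Q7: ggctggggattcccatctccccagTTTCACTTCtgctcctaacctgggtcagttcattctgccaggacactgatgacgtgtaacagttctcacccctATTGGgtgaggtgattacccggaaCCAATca
H2-T23: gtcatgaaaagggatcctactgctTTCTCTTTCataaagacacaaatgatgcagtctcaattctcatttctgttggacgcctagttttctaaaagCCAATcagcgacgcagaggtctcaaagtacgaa
H2-T22: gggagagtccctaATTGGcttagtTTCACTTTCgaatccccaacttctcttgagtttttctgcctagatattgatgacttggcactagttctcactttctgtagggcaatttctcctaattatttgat
H2-M3: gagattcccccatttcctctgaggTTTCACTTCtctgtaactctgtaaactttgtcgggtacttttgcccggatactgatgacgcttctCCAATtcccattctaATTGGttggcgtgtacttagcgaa

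The core was searched on both strands as 2 forms of the same spaced repeat. GAAANNGAA was present in the promoters of H2-T22 and H2-T23, 2 of 8, against 9.76% of the 27025 genes with a promoter of the same length. The form GAANNGAAA, added after the sequences were seen, was present in the other 6, H2-K1, H2-D1, H2-Q4, H2-Q6, H2-Q7 and H2-M3, against 8.68% of all genes, and in each of the 6 the letters were TTTCACTTC on the gene's strand. The Y box letters CCAAT were found in 8 of 8 (41.1% of all genes), and TGACG, the core of site alpha, in 6 of 8 (23% of all genes). The 9 letters GGGGATTCC, an NF-κB-like site also added after the sequences were seen, were found in H2-K1, H2-D1, H2-Q6 and H2-Q7 but not in the other 4, against 0.296% of all genes. H2-Q4 and H2-Q7, whose transcripts differed between genotypes in opposite directions, thus held the same interferon regulatory letters, and these matches are descriptions of sequence and not evidence of binding.

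Levels between the genes were compared as normalized counts per kilobase of exon, since a longer transcript collects more reads. In WT cells H2-K1 was highest, at 4270 ± 81.4 (SD, n = 3), followed by H2-D1 at 3279 ± 95.6. H2-T23 came next at 669 ± 42.0 and H2-Q4 at 480 ± 25.7 per kilobase, and the rest lay between 47.1 for H2-T10 and 188 for H2-T22. Neighbours in this order were separated in all WT samples except H2-M3 (147) from H2-Q7 (145) and H2-Q7 from H2-Q6 (124), whose ranges overlapped. In Irf1-/- cells H2-Q7 ranked 5 at 209 ± 14.3 per kilobase, H2-Q6 ranked 6 at 146 ± 7.03, and H2-T22 ranked 7 at 123 ± 10.97. The order also depends on the length used. Per kilobase of coding sequence H2-Q7 (594) was already ahead of H2-T22 (563) in WT cells. The whole count of a gene was also divided by its 50-base words found in no other gene. Per kilobase of those words, H2-Q4 (756) and H2-T23 (748) stood side by side in WT cells, and H2-Q6 (195) and H2-Q7 (186) came ahead of H2-M3 (153). Reads on shared words, if counted, would raise a value more where more words are shared, 36.4% for H2-Q4 and 14.5% for H2-T23.

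**Figure D1:**
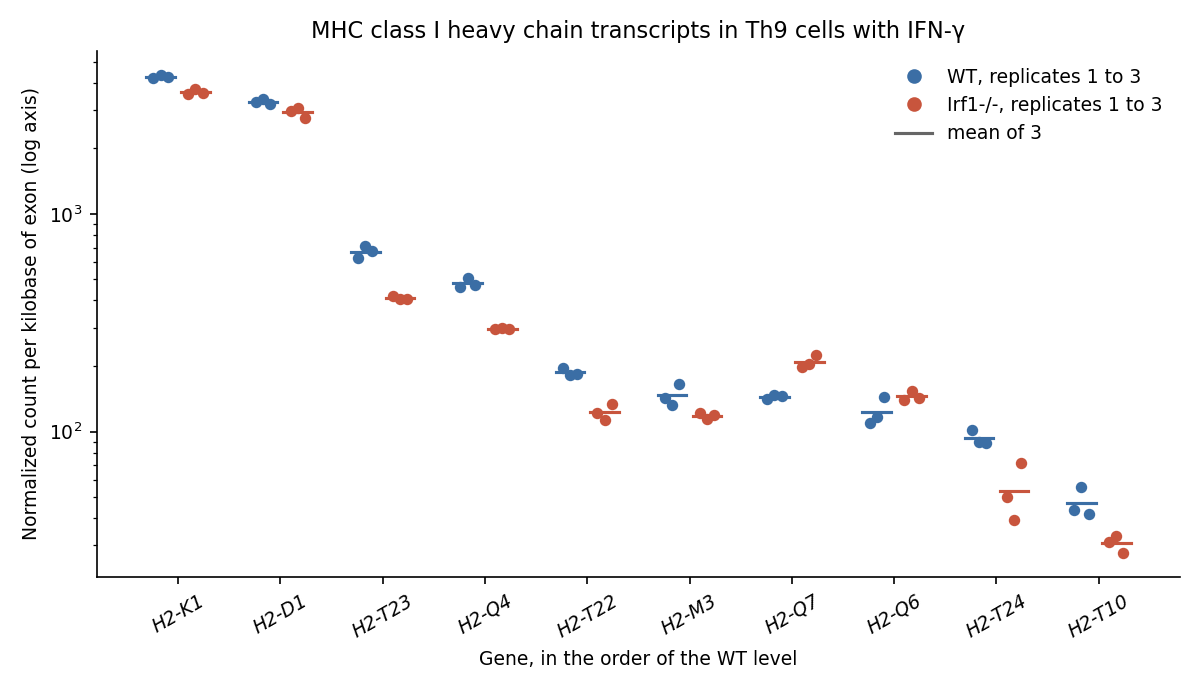
Normalized counts per kilobase of exon (log axis) of the 10 class I genes in the 3 WT (blue) and 3 Irf1-/- (red) samples, with the mean of each group as a bar, ordered by the WT mean. Irf1-/- points lie below all WT points for 8 genes, above them for H2-Q7, and overlap with them for H2-Q6.

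Across the 10 genes, 6 were called lower and 1 higher in Irf1-/- cells by limma at a Benjamini-Hochberg adjusted p below 0.05 over the 11379 genes tested. Over all those genes, 12.4% were called lower and 11.4% higher. For 9 of the 10 the WT and Irf1-/- values were fully separated, as they were for 40.5% of all genes. The median log2 fold change of the 10 was -0.46, beside -0.0037 over all genes tested. With 3 samples against 3 the two-sided exact permutation test cannot give a p under 0.1, and 9 genes reached that value.

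With all 6 libraries the classical genes had the smallest fold changes among the 8 genes whose mean was lower in Irf1-/- cells. H2-M3 was smaller in size than H2-K1 without WT replicate 3 (-0.220 against -0.241) and in replicates 1 and 2 only (-0.225 against -0.231). H2-K1 had normalized counts of 12334, 12805 and 12497 in WT replicates 1 to 3 and 10390, 11038 and 10493 in Irf1-/- replicates 1 to 3. Every WT value was above every Irf1-/- value, and the log2 fold change was -0.24 (standard error, SE = 0.0486, adjusted p = 0.006 by limma), which left 84.8% of the WT mean. H2-D1 had 8376, 8734 and 8261 in WT and 7688, 7898 and 7104 in Irf1-/- cells. Its groups did not overlap either, but the log2 fold change of -0.16 (95% confidence interval -0.28 to -0.042, adjusted p = 0.0535) did not pass the threshold, and under quantile normalization it was -0.075 (adjusted p = 0.407). Both fold changes had the same sign under the 20 alternatives that compare each gene with all others. H2-K1 was called in 18 of the 19 alternatives that allowed a test and H2-D1 in 4 of 19.

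H2-T23 encodes the heavy chain of Qa-1, which presents leader peptides of other class I chains to CD94-NKG2 receptors. It had normalized counts of 1806, 2047 and 1945 in WT and 1207, 1172 and 1174 in Irf1-/- cells. The lowest WT value was far above the highest Irf1-/- value, and the log2 fold change was -0.70 (SE = 0.0592, adjusted p = 3.07e-05). The Q region gene H2-Q4 had 1192, 1321 and 1229 in WT and 771, 775 and 765 in Irf1-/- cells. Its Irf1-/- samples had an SD of 5.18 (n = 3), the groups were widely separated, and the log2 fold change was -0.69 (SE = 0.0593, adjusted p = 3.37e-05). These genes were each left with about the same share of the WT mean, 61.3% for H2-T23 and 61.8% for H2-Q4, and both were called in 19 of 19 alternatives with a test. For H2-Q4, 496 exon bases (19.1%) lie opposite Gm11131, and 251 of its 50-base words are shared with H2-Q6.

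H2-T22 and H2-T10 are close relatives whose products are ligands of a subset of γδ T cells. H2-T22 had normalized counts of 671, 624 and 626 in WT and 417, 384 and 459 in Irf1-/- cells. It fell without overlap, with a log2 fold change of -0.61 (SE = 0.0793, adjusted p = 0.000459). H2-T10 had 150, 190 and 143 in WT and 106, 114 and 94.6 in Irf1-/- cells. Its fold change was of similar size, -0.61 on the log2 scale (SE = 0.137, adjusted p = 0.00976), with a wider spread among WT samples. The values of this pair are not independent measurements, because 1124 of the 50-base words of their transcripts are common to both, 31.2% of those of H2-T22 and 31.7% of those of H2-T10, and the sources used here do not give how reads that match more than 1 gene were counted. In addition, 1003 exon bases of H2-T22 lie opposite A930015D03Rik and 925 of H2-T10 opposite BC023719, and the library kit did not keep strand.

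H2-T24 had 221, 196 and 193 in WT and 109, 86.0 and 156 in Irf1-/- cells. Replicate 3 was highest among its Irf1-/- samples and closest to WT, and the log2 fold change of -0.83 (SE = 0.184, adjusted p = 0.00875) was the largest of the 10 in size and also the least precise. It was -1.10 in replicates 1 and 2 alone and -0.31 in replicate 3 alone. H2-M3, which presents formylated peptides of bacteria and mitochondria, had normalized counts of 206, 191 and 238 in WT and 174, 165 and 171 in Irf1-/- cells. Its groups did not overlap, yet the log2 fold change of -0.31 (95% confidence interval -0.54 to -0.074, adjusted p = 0.0573) missed the threshold, and it was called in 4 of 19 alternatives.

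H2-Q7 and H2-Q6 encode heavy chains of Qa-2, a class I molecule held in the membrane by a glycolipid anchor. H2-Q7 was the only one of the 10 called higher, with normalized counts of 599, 629 and 621 in WT and 844, 871 and 961 in Irf1-/- cells. All 3 Irf1-/- samples exceeded all WT samples, and H2-Q7 rose to 145% of the WT mean, a log2 fold change of 0.53 (SE = 0.0669, adjusted p = 0.000391) that was called in 19 of 19 alternatives. H2-Q6 had 228, 244 and 301 in WT and 293, 320 and 298 in Irf1-/- cells. WT replicate 3 lay inside the Irf1-/- range, and the log2 fold change of 0.25 (95% confidence interval 0.0072 to 0.48, adjusted p = 0.126) was not called. Without WT replicate 3 it was 0.36 (adjusted p = 0.0171), and between the replicates 3 alone it was -0.010. A fit with a term for the summed Y-linked level gave 0.091 (adjusted p = 0.622). H2-Q6 and H2-Q7 share 284 of their 50-base words, and H2-Q7 shares 631 with H2-Q10 and 393 with H2-Q5, so that reads may have passed between these genes in counting. H2-Q10 itself held at most 26 reads in a library, and H2-Q5, with 104 ± 14.3 and 78.9 ± 2.47 (SD, n = 3), was not called (log2 fold change -0.38, adjusted p = 0.0748). The further Q genes H2-Q8 and H2-Q9 had no entry under those symbols, so any reads from them could not be counted apart.

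**Figure D2:**
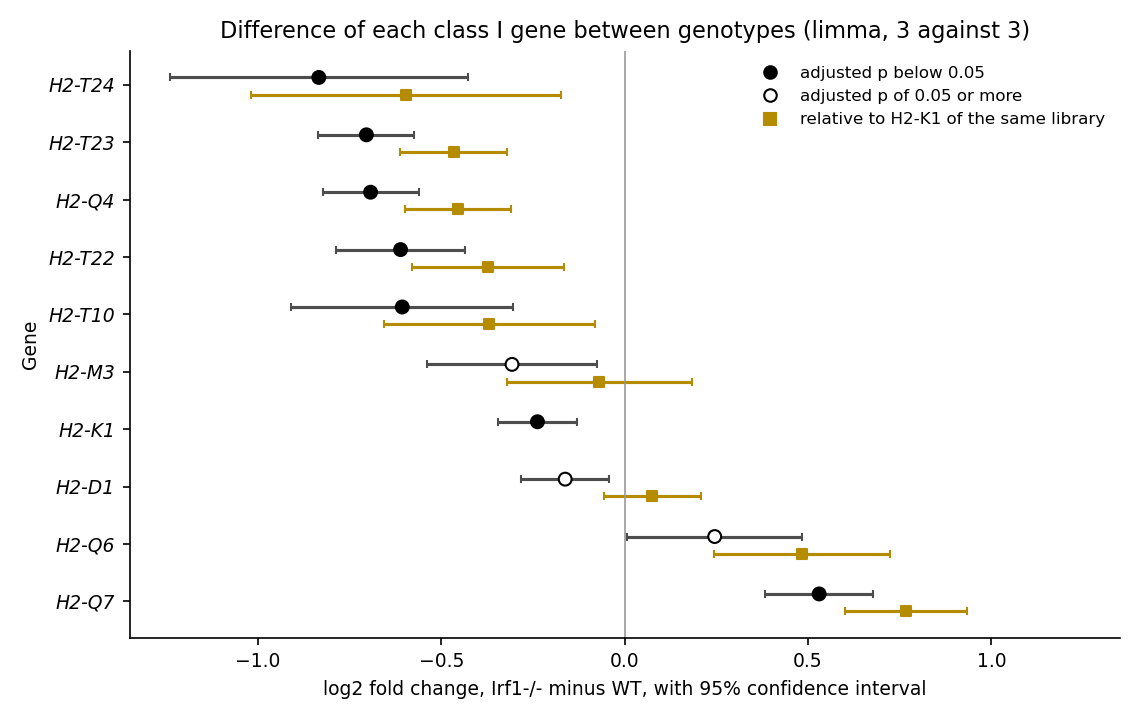
Log2 fold change between genotypes (Irf1-/- minus WT) of each class I gene with its 95% confidence interval, as fitted by limma (circles, filled where the adjusted p was below 0.05) and after dividing each library by its own H2-K1 count (squares). Circles run from -0.83 for H2-T24 to 0.53 for H2-Q7, and dividing by H2-K1 moves H2-D1 to 0.076 and H2-M3 to -0.069.

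The genes were next compared with one another inside each library, since dividing by H2-K1 removes any error in library scaling. The alternative was added after the data were seen. It raised the median log2 fold change over all genes tested to 0.23, so that 3.06% of them were lower and 39.3% higher than WT relative to H2-K1 in limma. H2-Q4 (-0.45), H2-T23 (-0.47), H2-T22 (-0.37), H2-T24 (-0.60) and H2-T10 (-0.37) were lower relative to H2-K1 at adjusted p between 0.000374 and 0.042, 5 of 9 genes. H2-Q7 (0.77, adjusted p = 3.95e-05) and H2-Q6 (0.48, adjusted p = 0.005) were higher, 2 of 9, a share below that of all genes. H2-D1 (0.076, 95% confidence interval -0.057 to 0.21) and H2-M3 (-0.069, 95% confidence interval -0.32 to 0.18) were not told apart from H2-K1. In the exact permutation test of the 9 log2 ratios, 7 reached the smallest p of 0.1, adjusted to 0.129 over the 9, and the ratios of H2-D1 and H2-M3 overlapped between genotypes.

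The summed normalized count of all 10 genes was 25783, 26981 and 26054 in WT and 21998, 22823 and 21675 in Irf1-/- cells, a mean of 84.4% of WT. The classical pair made up 79.7% to 80.3% of this sum in WT and 81.2% to 83.0% in Irf1-/- samples, so the total mostly follows H2-K1 and H2-D1. For the 8 nonclassical genes the sum fell from 5271 ± 186 to 3962 ± 102 (SD, n = 3), to 75.2% of WT, with no overlap and the smallest exact permutation p of 0.1. Inside the nonclassical sum, H2-Q6 and H2-Q7 together took 16.0% to 17.4% in WT samples and 29.0% to 30.9% in Irf1-/- samples. H2-Q4, H2-T22, H2-T23, H2-T24 and H2-T10 together took 78.1% to 80.5% and 64.9% to 66.6%. As these groups were formed from the values, the shares describe the samples and are not a test.

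**Figure D3:**
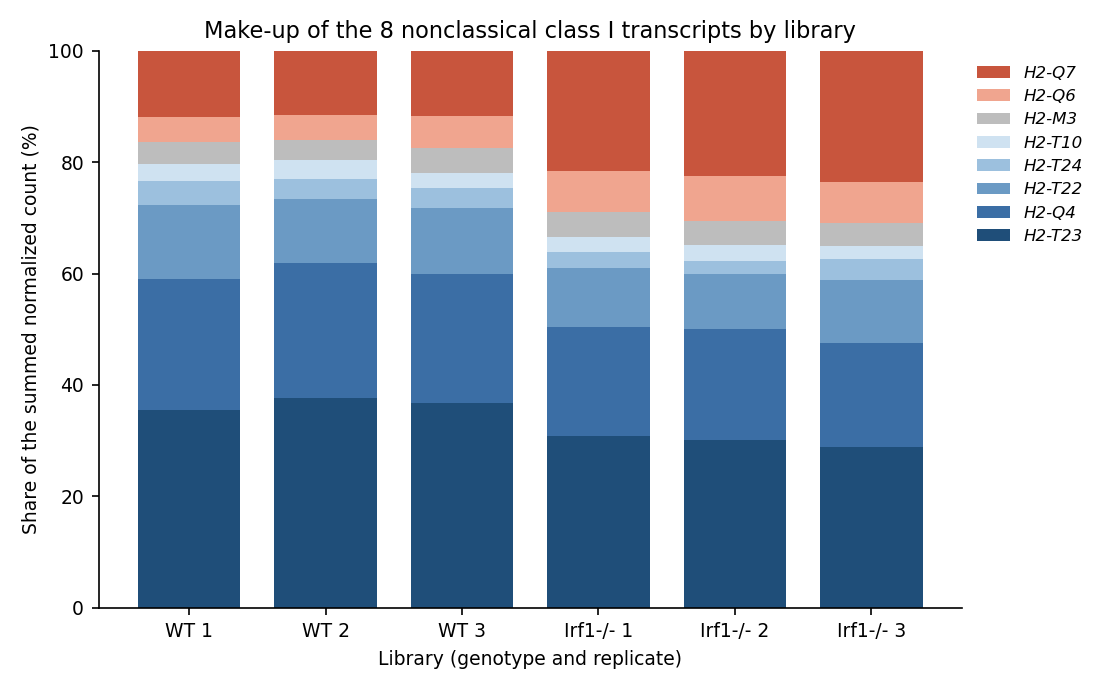
Share of each nonclassical class I gene in the summed normalized count of the 8 nonclassical genes (%), for each of the 6 libraries. The red segments, H2-Q6 and H2-Q7, cover 16.0% to 17.4% of the bar in WT and 29.0% to 30.9% in Irf1-/- libraries.

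Other heavy chain genes added little. Of 18 further class I heavy chains in the table, 2 passed the filter on low values, H2-Q5 and H2-K2, neither was called, and 13 were at or under 3 reads in every library. Of H2-Q5 and H2-K2, 1 was called lower under quantile normalization, with the replicate block and without WT replicate 1. Among 14 class I-like genes outside the H2 complex, 3 were tested and Ulbp1, a ligand of the activating receptor NKG2D, was called lower. It had normalized counts of 126, 160 and 72.5 in WT and 43.0, 38.8 and 24.9 in Irf1-/- cells (log2 fold change -1.68, adjusted p = 0.00231). In the libraries with Xist only the fold change of Ulbp1 was -1.04 (adjusted p = 0.1), and the call was lost. Mr1 (0.25, adjusted p = 0.466) and Cd1d1 (0.37, adjusted p = 0.417) were not called. Of 16 receptors for class I molecules, 2 were tested, and Cd160 fell from 109 ± 2.90 to 69.8 ± 15.1 (log2 fold change -0.65, adjusted p = 0.0172). Cd160 was not called without WT replicate 1 (adjusted p = 0.0513), without WT replicate 2 (adjusted p = 0.0636) or in the libraries with Xist only (adjusted p = 0.181).

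The proteins that load class I heavy chains form the surroundings in which these transcripts are used. All 14 genes listed for assembly and peptide supply were called lower in Irf1-/- cells and none higher, beside 12.4% and 11.4% of all genes. The median of their log2 fold changes stood at -0.80. In the libraries with Xist only 12 of the 14 were called, with Tap1 (adjusted p = 0.0604) and Calr (adjusted p = 0.076) lost, and 12 without the variance trend, with Calr (adjusted p = 0.0528) and Canx (adjusted p = 0.0834) lost. B2m, the light chain bound by every heavy chain described here, had normalized counts of 7514, 7252 and 8010 in WT and 5815, 6103 and 5987 in Irf1-/- cells (log2 fold change -0.35, adjusted p = 0.00123). The decrease in B2m was near that of H2-K1, while several loading genes fell much further. Erap1, which trims peptides in the endoplasmic reticulum, had 1514, 1538 and 1544 in WT and 423, 368 and 411 in Irf1-/- cells (log2 fold change -1.94, adjusted p = 4.49e-08). Tapbp, encoding tapasin, which bridges the heavy chain and the peptide transporter, had 2045, 2154 and 2018 in WT and 531, 628 and 585 in Irf1-/- cells (log2 fold change -1.83, adjusted p = 7.97e-08). For both genes the WT values were more than 3 times the Irf1-/- values.

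Among the remaining members of the list, the immunoproteasome subunits had log2 fold changes of -1.16 for Psmb10, -0.84 for Psmb8 and -0.50 for Psmb9, and the proteasome activators of -1.11 for Psme1 and -1.03 for Psme2. The tapasin relative Tapbpl stood at -0.97. The transporter subunits differed, with Tap2 at -0.77 and Tap1 at -0.30. Of the chaperones, which also serve other glycoproteins, Pdia3 stood at -0.45, Canx at -0.25 and Calr at -0.21, and Canx missed the threshold without Irf1-/- replicate 2 (adjusted p = 0.0698). The 10 listed genes that do not lie between H2-K1 and H2-M3 had a median log2 fold change of -0.997, and all 10 were called lower.

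**Figure D4:**
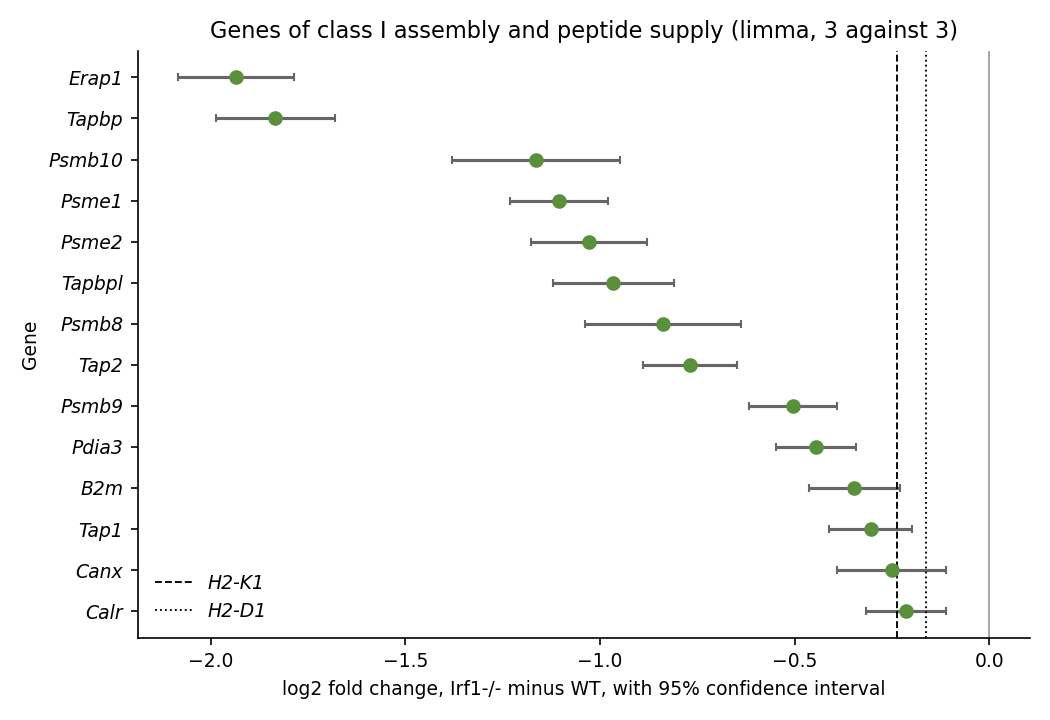
Log2 fold change between genotypes (Irf1-/- minus WT) of the 14 genes of class I assembly and peptide supply, with 95% confidence intervals, beside the fold changes of H2-K1 (dashed line, -0.24) and H2-D1 (dotted line, -0.16). Points run from -1.94 for Erap1 to -0.21 for Calr, and every interval lies below 0.

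Of 11 factors that act at class I promoters, 3 (27.3%) were called lower, against 12.4% of all genes, and none higher. Irf2, a relative of Irf1 that binds the same element, had normalized counts of 411, 434 and 393 in WT and 170, 216 and 242 in Irf1-/- cells (log2 fold change -0.99, adjusted p = 0.000315). Nfya (-0.25, adjusted p = 0.0135), a subunit of the factor that binds CCAAT, and Creb1 (-0.27, adjusted p = 0.027) also passed the test, in 16 and 12 of 19 alternatives. Nfya was not called without Irf1-/- replicate 1 (adjusted p = 0.0564), nor Creb1 without WT replicate 1 (adjusted p = 0.114) or Irf1-/- replicate 2 (adjusted p = 0.104). Irf2 was the 1 factor still called without WT replicate 2 and in the libraries with Xist only. Nlrc5 had a mean of 1739 ± 89.9 in WT and 1568 ± 68.9 in Irf1-/- cells (log2 fold change -0.15, adjusted p = 0.0945) and was not called. Its groups did not overlap, its sign held in 20 of 20 alternatives, and it was called lower in 3 of 19 with a test. Rfx5, a subunit of the complex with which NLRC5 acts, had 202 ± 26.0 and 229 ± 37.8 (log2 fold change 0.17, adjusted p = 0.396) and was not called.

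Position within the H2 complex was examined because the class I genes lie in clusters. Between H2-K1 and H2-M3, 86 tested genes were on none of the heavy chain lists, 1 of them the class I pseudogene H2-T-ps (log2 fold change -0.059, not called), and 8 of the 86 were called lower and 14 higher, or 9.3% and 16.3% against 12.4% and 11.4% of all genes. The 8 lower genes included Psmb8, Psmb9, Tap1 and Tap2 of the assembly list. The median over the 86 was 0.035 on the log2 scale. Leaving out WT replicate 1, WT replicate 2 or Irf1-/- replicate 1 gave 5 lower and 8 to 9 higher, and the libraries with Xist only 4 and 5. The lowest, leaving out genes under 100 in both groups, were Psmb8 and Tap2, given above, and H2-DMa (466 in WT and 307 in Irf1-/- cells, -0.58, adjusted p = 0.013), a class II chaperone whose call was lost without Irf1-/- replicate 1 (adjusted p = 0.0509). The highest were H2-Ab1, a class II chain (25.1 and 134, log2 fold change 2.53, adjusted p = 0.00111), Gabbr1 (143 and 257, 0.84, adjusted p = 0.00074) and the cytokine gene Lta (5945 and 9848, 0.74, adjusted p = 0.000256). In the Q region, H2-Q4 (-0.69) and H2-Q7 (0.53) had opposite signs although they lie close together. All 4 T genes of the 10 were lower, by 0.61 to 0.83 on the log2 scale, while H2-T-ps between H2-T22 and H2-T10 was not called.

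**Figure D5:**
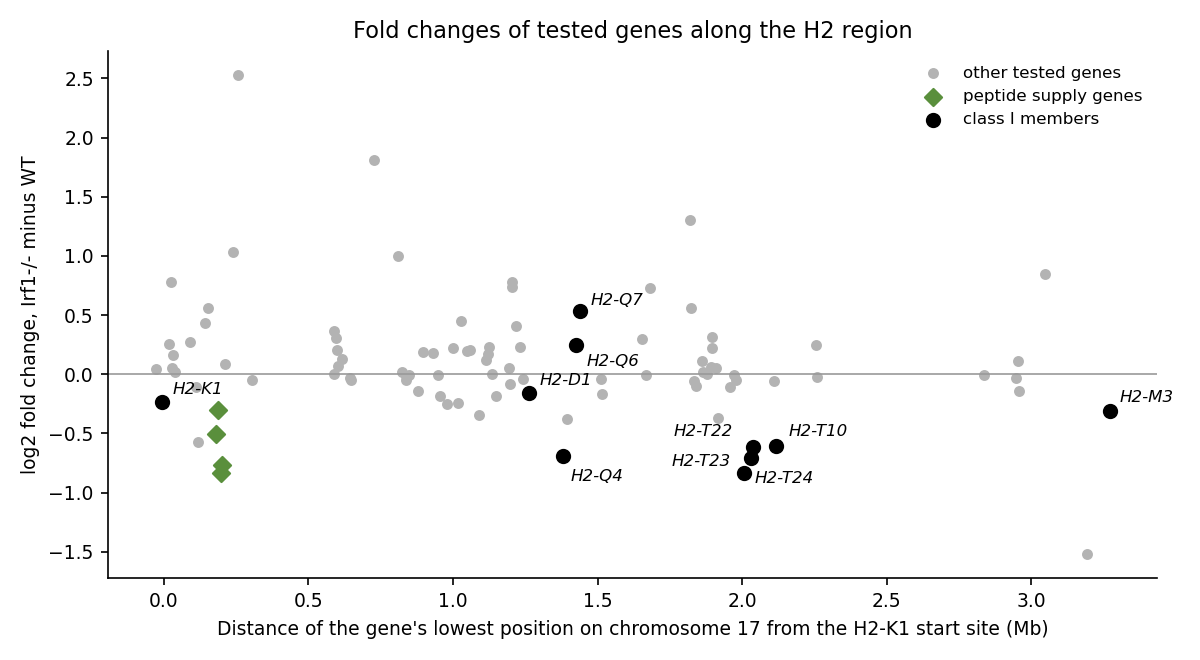
Log2 fold change (Irf1-/- minus WT) of tested genes along chromosome 17 against the distance of each gene's lowest position from the H2-K1 start site (Mb), with class I genes in black, peptide supply genes as green diamonds and the other genes in grey. The 4 T genes of the 10 sit together between -0.83 and -0.61, H2-Q4 lies at -0.69 and H2-Q7 at 0.53, and the grey points lie on both sides of 0.

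The calls were examined in the libraries that held Xist and few or no Y-linked reads, 1 WT against 3 Irf1-/- samples, where the lone WT sample was assumed to vary like the others. There H2-Q4, H2-T22 and H2-T23 were still called lower and H2-Q7 higher, beside 392 lower and 392 higher of the 11379 genes. H2-Q6 was at 0.014 (adjusted p = 0.963) and H2-M3 at -0.48 (adjusted p = 0.085). H2-K1 (-0.23, adjusted p = 0.106), H2-T24 (-0.76, adjusted p = 0.136) and H2-T10 (-0.45, adjusted p = 0.196) kept their sign but missed the threshold. Without Irf1-/- replicate 2, which held the highest summed level of myeloid markers, 6 of the 10 genes were called lower and 1 higher, beside 895 lower and 820 higher of the 11379 genes.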

How the data were processed

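Poly(A) RNA of 3 WT and 3 Irf1-/- samples was sequenced as single-end reads from a library kit that does not keep strand. Per the paper's methods and the submitters' processing notes, reads were aligned with STAR 2.4.0b to GRCm38 and counted on Ensembl genes with featureCounts, and the authors normalized the counts with DESeq2 1.12.3. The signal as deposited gives for each gene a normalized count, its reads divided by a library's size factor, and whole reads were recovered for 100% of the values above 0 within a tolerance of 0.01. A figure legend of the paper calls the samples independent biological samples, and p-values set the difference between genotypes against the spread between samples. The WT spread includes the difference in Y-linked transcripts given above.

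From these values log2(normalized count + 1) was tested in R 4.3.3 with limma 3.58.1 (moderated variances with a trend on the mean). The 11379 genes whose mean reached 10 entered the test, p-values were adjusted over all of them by the Benjamini-Hochberg procedure, and the threshold was 0.05. A fold change on this scale understates the change of low genes. Count models on the recovered reads (edgeR 4.0.16, DESeq2 1.42.0) were alternatives, as were other pseudocounts, filters, scalings, a replicate block, a Y-linked covariate and subsets of libraries. Single values were tested by two-sided exact permutation over samples, and scripts were checked on simulated data. Positions and lengths came from the GRCm38 annotation, matched for 40254 of 41388 identifiers, and promoters (250 bases before to 50 after the start) from RefSeq. The 10 genes and all lists, the latter from general knowledge, were chosen with earlier results of these data known. Named genes are the 10, the assembly list, Nlrc5, Rfx5, Irf1, up to 4 called genes of each other list, and up to 3 called H2 neighbours in each direction whose higher group mean reached 100. Other markers, H2-Q5, H2-Q10, H2-K2, Mr1 and Cd1d1 were named after their values were seen, and H2-Q8 and H2-Q9 because they had no entry. 1 further promoter factor, left out of the 11 counted, and 1 promoter motif are not reported here.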

Additional observations from a re-analysis of the deposited data

How the results depend on the processing

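H2-Q4, H2-T22 and H2-T23 (lower) and H2-Q7 (higher) were called in all 19 alternatives with a test. The median log2 fold change of the 10 genes ranged from -0.47 to -0.38 and that of their summed level from -0.27 to -0.22, where settings of the pseudocount, filter and model do not apply to a sum. Among the 10 genes, 3 were called lower in the libraries with Xist only, beside 6 in all libraries, and 2 were called higher, beside 1, with the replicate block and in replicates 1 and 2 only. Leaving out 1 library gave 6 to 7 genes lower and 1 to 2 higher, the second being H2-Q6 without WT replicate 3. H2-T24 also missed the threshold without the trend (adjusted p = 0.0511). H2-D1 fell to -0.075 under quantile normalization and was called with a mean of at least 50, the replicate block, without WT replicate 3 and in replicates 1 and 2 only, and H2-M3 with quantile normalization, the replicate block, edgeR and the Y-linked covariate. Relative to H2-K1 the fold change of H2-D1 turned to 0.076, and that of Rfx5 turned to -0.070 in replicates 1 and 2 only, both uncalled. The cause was not tested.

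Over all genes, 1406 were lower and 1293 higher, but 807 lower without the trend, 2116 lower and 1893 higher with the replicate block, 2085 lower and 1810 higher in replicates 1 and 2 only, and 392 lower and 392 higher in the libraries with Xist only. Leaving out 1 library gave 826 to 1472 lower and 799 to 1372 higher. Same-numbered WT and Irf1-/- samples correlated in their deviations at 0.092, 0.27 and 0.32, each best with its own number. As replicate 1 was under 0.1, the numbers were not taken as pairs, and the replicate block gave 8 of the 10 genes lower. The lowest read numbers, and so the largest relative counting error, were those of H2-T10 and H2-T24. Protein identity between the genes was not run, because no protein table was used.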
